A study of Mus musculus with 9 samples.

Results

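Ovarian grafts recovered on day 10 post-transplantation were compared with the early grafts, recovered on days 4 and 7. The samples were taken by the day in their labels, which gave 4 of the 9 arrays of the series: 2 arrays for day 10, labelled as biological replicates, and 1 array each for days 4 and 7. All grafts were XX fetal ovaries without mesonephros from embryos of 13 dpc, and the labels give ICR as the strain, whereas the methods name C57BL/6 and ICR females. The pregnant females of every group had received 2 injections of busulfan at 40 mg/kg, an alkylating drug given to remove germ cells. The ovaries of a pair, 2 in number, were placed under 1 kidney capsule of an intact male (XY) BALB/c nude host of 8 weeks, so that all grafts of the comparison shared the fetal age at grafting, the busulfan and the male host. Nude (nu/nu) hosts lack a thymus and have few mature T cells, but keep macrophages, granulocytes and NK cells. RNA of about 10 grafts was pooled for each array, but the sources used here do not say which litters and hosts went into a pool. The remaining 5 arrays, 2 of ungrafted ovaries on day 0, 1 of day 15 and 2 of day 20, are cited only as levels. Those of days 0 and 20 entered the fit through the spread between duplicates, and the single day 15 array added no spread.

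In a fetal mouse ovary the female germ cells enter meiosis, arrest, and are enclosed by pre-granulosa cells in primordial follicles. When a follicle starts to grow, its oocyte enlarges, builds the zona pellucida and stores maternal transcripts and proteins, while the pre-granulosa cells become granulosa cells and theca cells and blood vessels gather around the follicle. A graft under the kidney capsule has no blood supply of its own at first and is entered by host macrophages and vessels. The comparison of day 10 with the early grafts addresses the days in which follicles would begin to grow and the first reaction to engraftment would settle.

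The arrays were Affymetrix mouse chips, which measure a transcript with a set of short probes called a probe set. Values are log2 intensities, so that a difference of 1 is a 2-fold difference. The median of an array lay between 6.49 and 6.63, and the median difference over all 45101 probe sets was -0.02. The day 4 and day 7 arrays had a Pearson correlation of 0.9906 across probe sets, the day 10 duplicates had 0.9904, and pairs of a day 10 and an early array lay between 0.9738 and 0.9891. Probe sets are not independent replicates, and these correlations only describe the arrays. A value under 4.82, the 25th percentile over all arrays and probe sets, counts here as near background. The ovarian marker Foxl2, a transcription factor of granulosa cells, read 12.84 on day 4, 12.93 on day 7, and 12.92 and 12.68 on the day 10 arrays. Bulk values cannot tell fewer cells of a type from less RNA per cell.

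No probe set passed the test. In a limma fit with a mean for each day, 0 of 45101 probe sets (0%) were higher and 0 (0%) lower on day 10 than the mean of days 4 and 7 at an adjusted p under 0.05 and a fold over 2. The lowest adjusted p was 0.237, and 1367 probe sets were higher and 1660 lower at an unadjusted p under 0.05. Against day 7 alone 0 probe sets (0%) passed in either direction, with 611 higher and 790 lower at that unadjusted level, and against day 4 alone 0 (0%) passed, with 1329 higher and 1613 lower. The smallest exact two-sided permutation p for 2 arrays against 2 is 0.33, so that no single gene could reach 0.05 by permutation. Genes are therefore described by whether both day 10 arrays lay above or below both early arrays, and "past 2-fold" means that the group means then also differed by more than 2-fold.

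By that description 9020 probe sets (20.0%) were higher and 11425 (25.3%) lower on both day 10 arrays, of which 657 (1.46%) and 454 (1.01%) were past 2-fold. Without the day 7 array 1242 were higher past 2-fold, and without day 10 replicate 1 the number was 1357. Without the day 4 array it was 488, without day 10 replicate 2 it was 506, and the lower probe sets numbered between 454 and 668 over the 4 omissions. With a single probe set for each of 18194 genes, 3988 genes (21.9%) were higher and 5441 (29.9%) lower, and 388 (2.13%) and 297 (1.63%) were so past 2-fold. The median difference over all genes was -0.04. These shares are the background for every gene list below. The members were chosen by function, but with earlier results of these data known, so that the lists are not independent of the values.

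**Figure D1:**
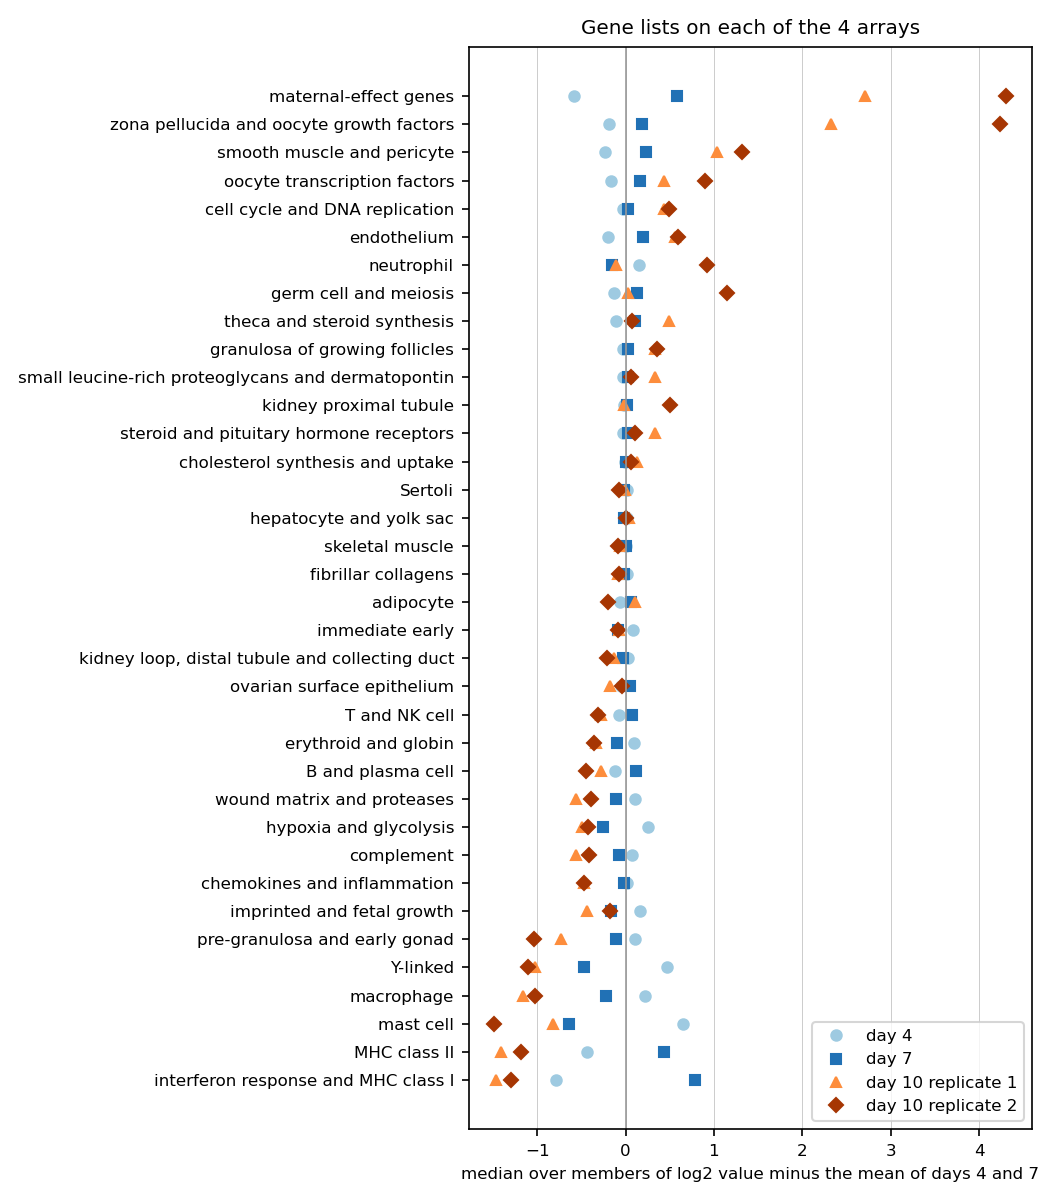
Median over the measured members of each gene list of the log2 value minus the mean of days 4 and 7 (horizontal axis), for the day 4, day 7 and day 10 arrays, with lists ordered by their median difference on day 10. Maternal-effect genes stand at 2.71 and 4.31 on the day 10 arrays, and interferon response genes at -1.47 and -1.29.

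Oocyte genes showed the largest differences of all genes, and all 15 genes highest on day 10 relative to the early grafts are known for expression in oocytes or early embryos. The list of zona pellucida and oocyte growth factor genes was measured for 13 of 13 members, of which 10 were higher, 0 lower and 9 higher past 2-fold, with a median difference of 3.35 (10.2-fold). For the maternal-effect genes, whose products are stored in the oocyte for the early embryo, 17 of 20 were measured, 14 were higher, 1 lower and 13 higher past 2-fold, with a median of 3.46 (11.0-fold). Of the oocyte transcription factors 9 of 10 were measured, 4 were higher and 1 was lower, 3 and 1 of these past 2-fold, with a median of 0.62. With values raised to 4.82 the zona list had a median of 2.96.

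The promoters of 3 of these genes are shown with the sites known for factors that switch on oocyte genes, E-boxes (CANNTG) for FIGLA and TAATTG for NOBOX. The sequences are the 250 bases before the start in RefSeq (GRCm38.p6), written 5′ to 3′ along the gene, with matches on either strand in capitals. Zp3 (chr5:135979855-135980104, plus strand) holds 3 E-boxes, Oosp1 (chr19:11691052-11691301, minus strand) holds 5, and Ooep (chr9:78378589-78378838, minus strand) holds 1, with 1 NOBOX element read on the opposite strand.
Zp3: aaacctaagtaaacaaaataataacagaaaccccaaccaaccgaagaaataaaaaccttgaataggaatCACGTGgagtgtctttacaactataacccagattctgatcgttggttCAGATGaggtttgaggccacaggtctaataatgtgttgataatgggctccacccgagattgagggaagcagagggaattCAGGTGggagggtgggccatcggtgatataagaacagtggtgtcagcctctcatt
Oosp1: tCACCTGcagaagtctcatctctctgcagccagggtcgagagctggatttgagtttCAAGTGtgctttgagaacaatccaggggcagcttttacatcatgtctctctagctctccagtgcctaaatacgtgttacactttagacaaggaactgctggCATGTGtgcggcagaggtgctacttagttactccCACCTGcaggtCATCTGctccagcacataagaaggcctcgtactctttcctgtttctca
Ooep: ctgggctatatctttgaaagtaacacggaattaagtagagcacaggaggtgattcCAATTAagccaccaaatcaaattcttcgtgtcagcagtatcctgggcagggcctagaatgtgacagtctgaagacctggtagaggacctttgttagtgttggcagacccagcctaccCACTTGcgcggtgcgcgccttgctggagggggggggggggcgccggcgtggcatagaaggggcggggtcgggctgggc
Of the 25 oocyte genes past 2-fold, 17 matched a RefSeq promoter, and 17 of their 20 windows (85.0%) held an E-box against 66.2% of all 32841 windows. TAATTG stood in 2 of the 20 windows (10.0%), that of Ooep among them, and in 7.17% of all windows. The genes shown are examples and do not stand for the whole set, since the windows of Lhx8 and Uchl1 held neither motif. A match describes the letters and is not a binding site.

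Nlrp14, a maternal-effect gene of the NLR family, read 3.78 on day 4 and 7.79 on day 7, and 10.98 and 12.75 on the day 10 arrays. Day 4 lay under the background level, day 7 lay well above it, and both day 10 arrays lay above both. The difference of 6.08 (67.7-fold, SE 0.627) had an adjusted p of 0.246 and was 5.56 with low values raised to 4.82. Oosp1, which encodes an oocyte-secreted protein, read 4.58 and 4.45 on the early arrays and 8.97 and 10.71 on day 10. Its early values were both at background, so that the difference of 5.32 (40.1-fold, SE 0.584, adjusted p 0.246) is uncertain in size, and it was 5.02 with low values raised. For Zp2 and Zp3, coat proteins of the zona pellucida, the day 4 values were 5.02 and 5.03, the day 7 values 8.42 and 8.49, and the day 10 values 10.94 and 12.75 for Zp2 and 10.84 and 12.74 for Zp3. Among the 4 arrays both genes were lowest on day 4 and intermediate on day 7, with differences of 5.12 (SE 0.603) and 5.03 (SE 0.626) and an adjusted p of 0.261 each. Zp1, the third coat protein, read 5.08 and 6.60 on days 4 and 7 and 8.76 and 10.95 on day 10.

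The growth factors Gdf9 and Bmp15, which oocytes secrete to act on granulosa cells, were also higher on both day 10 arrays. Gdf9 read 7.02 and 7.73 on days 4 and 7 and 10.07 and 12.13 on day 10, a difference of 3.72 (SE 0.644, adjusted p 0.328). Bmp15 read 4.60 and 3.98 against 6.61 and 8.66. Its early values were at background, and the difference of 3.35 was 2.82 with low values raised. The linker histone gene H1f8 differed by 3.50 and Mos, the kinase that holds the mature egg in metaphase arrest, by 2.96. Kit, the receptor for the granulosa cell factor Kitl, overlapped between the groups with 9.44 and 9.81 against 9.62 and 10.27, as did the receptor genes Gpr3 and Gpr12.

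Among the maternal-effect genes, several encode parts of the subcortical maternal complex, which anchors stored factors under the egg membrane. Ooep read 5.99 and 7.86 on days 4 and 7 and 10.21 and 13.12 on day 10, a difference of 4.74 (SE 0.918, adjusted p 0.370). Padi6 read 5.69 and 9.33 against 11.12 and 13.24, a difference of 4.67 (SE 0.666, adjusted p 0.269). Nlrp5 differed by 4.10 and Khdc3 by 3.46, whereas Tle6, another part of the complex, read 10.53 and 10.19 against 10.51 and 11.60 and overlapped. Dppa3, which guards maternal methylation in the early embryo, stood at 9.70 on day 7 after 5.14 on day 4, with 10.53 and 12.44 on day 10. Btg4, an adaptor for the decay of maternal RNA, differed by 3.84, Zar1 by 2.83 and Bcl2l10 by 4.83. The remaining genes among the 15 with the largest positive difference were Khdc1b, Omt2b, Rfpl4, Omt2a, Elobl, Fbxw24, Dppa5a and Fbxw18, with differences between 4.50 and 5.67. Early values of Omt2a and Omt2b were under the background level. With low values raised, the difference was 3.05 in place of 4.65 for Omt2a, and 4.17 for Omt2b. Khdc1b, Omt2a, Omt2b, Fbxw18 and Fbxw24 belong to families of close copies, and a probe set may read several members.

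The transcription factor genes were less uniform. Lhx8 read 4.61 and 7.24 on days 4 and 7 and 7.58 and 9.65 on day 10, a difference of 2.69 (SE 0.657, adjusted p 0.482). Nobox read 6.05 and 7.71 against 8.31 and 9.94, a difference of 2.25 (SE 0.576, adjusted p 0.502). Figla, which drives the zona genes, differed by 2.03 in the means, but day 7 at 7.47 lay just above day 10 replicate 1 at 7.44, so that the groups overlapped. Sohlh1 and Sohlh2, which act earlier in the oocyte, overlapped too. Taf7l, a germ cell form of a general transcription factor subunit, was lower on day 10, with 6.62 and 5.82 against 4.91 and 4.50, a difference of -1.52.

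The 25 oocyte genes past 2-fold were split by whether day 7 lay more than 2-fold above day 4. The cut was set here and marks no gap, since day 7 minus day 4 was 0.90 for Uchl1 and 1.11 for Btg4. In 15 genes, Nlrp14, Padi6, Zp2, Zp3 and Dppa3 among them, day 7 was already more than 2-fold above day 4, with a median of 1.87 from day 4 to day 7 and of 3.25 from day 7 to the day 10 mean. In the other 10, which include Oosp1, Gdf9, Bmp15, Mos, H1f8 and Zar1, day 7 was within 2-fold of day 4 (median -0.08), and the median from day 7 to day 10 was 3.03. With 1 array for each early day the split itself has no replicate check. Day 10 was not the end for all of them: Bmp15 read 9.79 on day 15 and 10.03 and 10.35 on day 20, and Obox5 read 5.44 and 6.82 on day 10 and 8.73 on day 15.

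**Figure D2:**
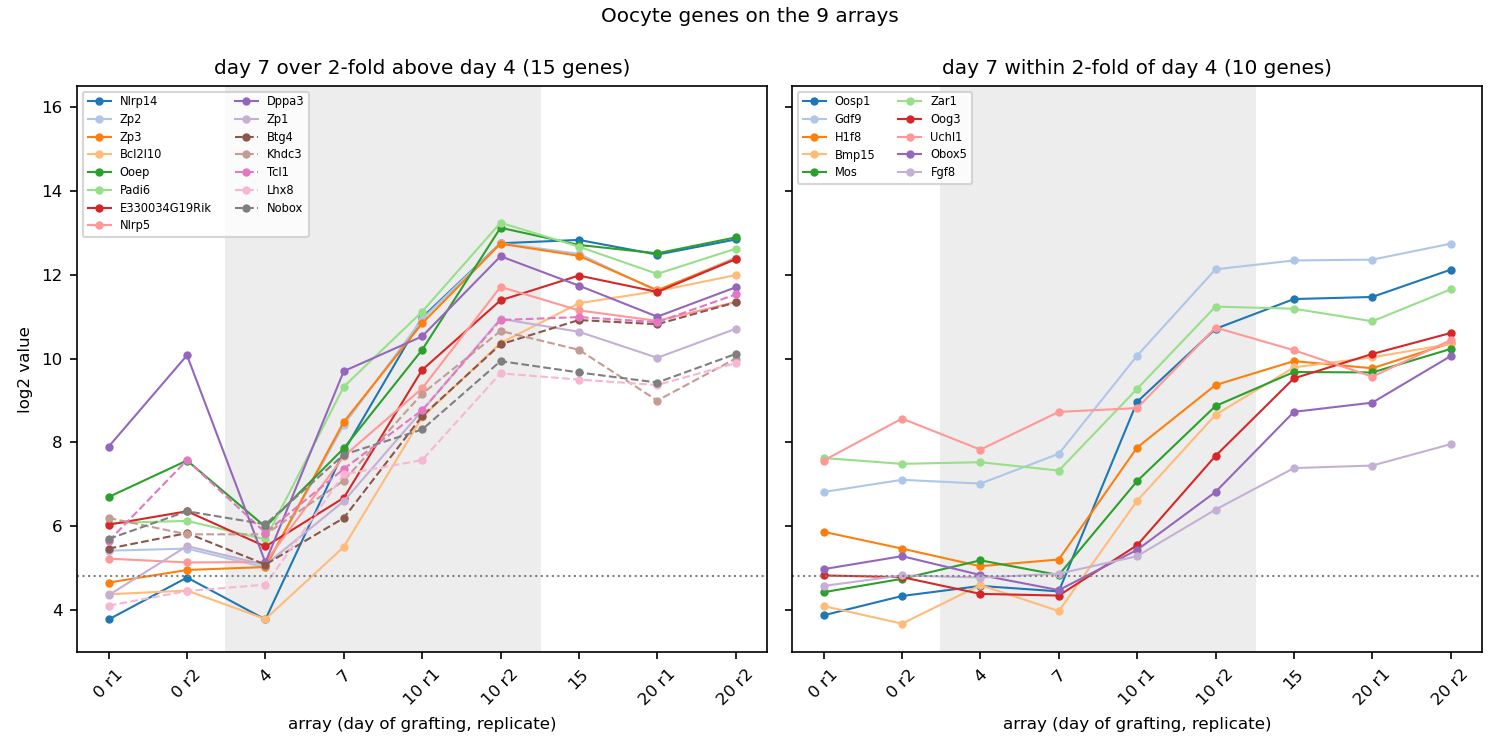
Log2 values of the 25 oocyte genes past 2-fold on all 9 arrays, with the 4 arrays of the comparison shaded and a dotted line at 4.82. Lines join the values of a gene and imply no order among replicates. Genes of the left panel stand more than 2-fold above their day 4 level on day 7, those of the right panel within 2-fold of it, and all 25 are higher on day 10 replicate 2 than on replicate 1.

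The day 10 duplicates differed in these genes. All 25 were higher on replicate 2 than on replicate 1, by 1.5 to 2.91 in the 15 genes and by 1.11 to 2.14 in the other 10. Over all genes, 6566 of 18194 were higher on replicate 2, which is the background for such counts. With replicate 1 alone, the median difference from the early mean was 2.32 for the zona list and 2.71 for the maternal-effect list, and with replicate 2 alone it was 4.24 and 4.31. Other genes moved with replicate 2. S100a8 and S100a9, the calprotectin genes of neutrophils, read 6.18 and 6.04 on replicate 1 but 10.43 and 10.13 on replicate 2, and 8 of the 10 measured neutrophil genes were higher on replicate 2, with list medians of -0.11 and 0.93 over the early mean. The granule genes Ngp and Camp read 5.07 and 5.88 against 6.56 and 6.74, while Cxcr2 stayed near background at 4.09 and 3.86. Of 18 kidney proximal tubule genes, 6 were higher on both day 10 arrays than on both early arrays and 1 was lower, 3 of the higher past 2-fold, and 16 were higher on replicate 2 than on replicate 1, with medians of -0.01 and 0.50 over the early mean. The kidney enzyme gene Miox read 5.44 and 5.25 on days 4 and 7 and 7.96 and 10.19 on day 10, and Slc27a2, a fatty acid transporter, read 5.10 and 6.25 against 7.55 and 8.65, so that both were above the early arrays on replicate 1 as well. Cyp2e1 was the other gene past 2-fold, with 5.96 and 6.82 against 7.46 and 7.81. Miox is not read as a kidney gene alone, since the paper lists it among Sertoli cell-specific genes upregulated on day 10. Acsm2 read 5.5 and 5.59 against 5.35 and 8.06 and was high on replicate 2 alone, whereas 8 genes of the loop, distal tubule and collecting duct had medians of -0.12 and -0.21. The part of these cells in the differences between the replicates was not tested.

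**Figure D3:**
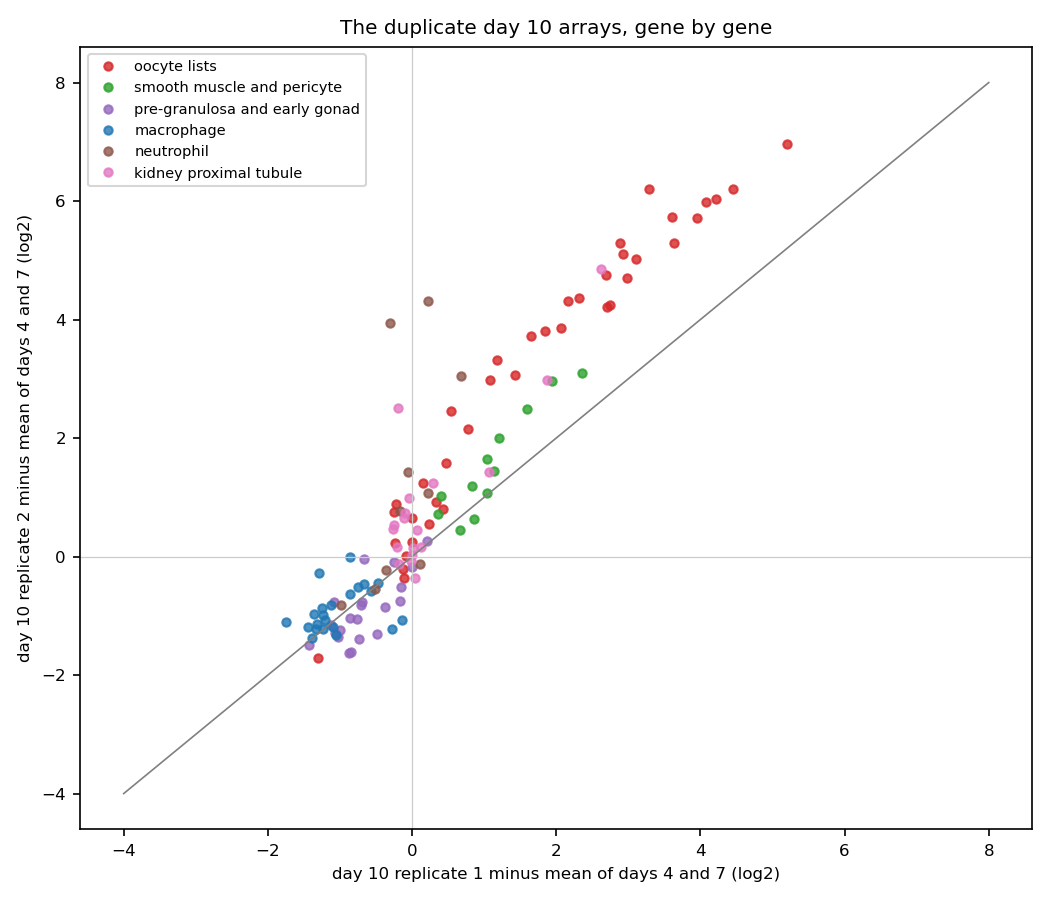
Log2 value minus the mean of days 4 and 7 on day 10 replicate 1 (horizontal) and replicate 2 (vertical) for the members of 8 gene lists in 6 colours, the 3 oocyte lists sharing 1 colour, with the line of equal values. Most oocyte genes lie above the line, macrophage genes lie along it at negative values, and S100a8 and S100a9 stand high on replicate 2 alone.

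Germ cell and meiosis genes did not move together. Of 21 measured genes of 22, 7 were higher and 6 lower, 6 and 1 of these past 2-fold, with a median of 0.39, and the median was 0.02 on replicate 1 and 1.14 on replicate 2. Ddx4, the germ cell RNA helicase, read 4.76 and 5.84 on days 4 and 7 and 6.76 and 8.74 on day 10, a difference of 2.45 (SE 0.913, adjusted p 0.702). Pou5f1, a pluripotency factor that growing oocytes express again, read 4.82 and 5.42 against 6.30 and 8.42, and Tex14 differed by 1.5. Rec8, the meiotic cohesin, went the other way, with 8.04 and 7.28 against 5.95 and 5.91, a difference of -1.73 (SE 0.230, adjusted p 0.261). Stra8, the switch into meiosis, read 5.60 and 5.51 against 5.47 and 5.47, and Dmc1, the recombinase, stayed between 4.77 and 5.04. On day 0 the ungrafted ovaries read 7.37 and 9.61 for Ddx4 and 6.68 and 8.63 for Pou5f1, above both early arrays. Tex14 read 7.26 and 8.66 there, and Rec8 9.09 and 9.63.

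Somatic genes of the ovary were described by stage. Genes of granulosa cells in growing follicles were measured for 18 of 20 members, of which 10 were higher and 3 lower, 5 and 1 of these past 2-fold, with a median of 0.31. Pre-granulosa and early gonad genes were measured for 21 of 22, of which 1 was higher and 17 lower, 8 of these past 2-fold, with a median of -0.90 (0.534-fold).

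Nr5a2, an orphan receptor of granulosa cells, read 8.63 on day 4 and 9.89 on day 7, and 11.09 and 10.66 on day 10, a difference of 1.62 (SE 0.437, adjusted p 0.527). Hsd17b1, which turns estrone into estradiol, read 7.55 and 7.69 against 9.05 and 9.14, a difference of 1.47 (SE 0.251, adjusted p 0.323). For Slc18a2, a vesicular amine transporter, the values were 10.33 and 11.31 against 12.37 and 12.04. Among the 4 arrays, each of these genes was lowest on day 4. The receptor genes Bmpr1b and Esr2 differed by 1.23 and 1.05. Amh, the hormone of granulosa and Sertoli cells, read 6.73 and 6.81 against 6.99 and 7.19, a small difference of 0.32 (SE 0.156, adjusted p 0.823). Inha and Inhbb, which encode inhibin subunits, differed by 0.42 and 0.65. Fst, which binds activin, was lower, with 12.12 and 11.28 against 10.69 and 10.46, a difference of -1.13 (SE 0.163, adjusted p 0.269).

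Among the pre-granulosa genes Gata4, a zinc finger factor of the gonadal soma, read 10.18 and 10.48 on days 4 and 7 and 8.90 and 8.84 on day 10, a difference of -1.46 (SE 0.436, adjusted p 0.594). Rspo1, the secreted activator of WNT signalling in the fetal ovary, read 11.26 and 10.87 against 10.22 and 9.46, a difference of -1.22 (SE 0.340, adjusted p 0.542). Wnt4, the ligand it acts with, read 12.18 and 11.84 against 11.24 and 10.96, a difference of -0.90. Readouts of the same pathway were lower as well, with differences of -1.19 for Lgr5, -1.12 for Lef1 and -0.72 for Axin2 and no overlap in any of them. Irx3, a homeobox gene of the pre-granulosa cell, read 12.22 and 12.02 against 11.00 and 10.96, a difference of -1.14 (SE 0.303, adjusted p 0.519), and its neighbour Irx5 differed by -0.92. Nr0b1 (Dax1) differed by -1.06, Lzts1 by -1.19 and Zbtb7c by -1.26. For Nr5a1, the steroidogenic factor of the gonad, the difference was -0.77 in the probe set used here, but another of its probe sets gave 0.07. Wt1 differed by -0.34, and Bmp2 and Lhx9 overlapped.

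Sertoli genes stayed near the middle of all genes. Of 16 measured genes of 18, 3 were higher and 5 lower, 1 and 0 of these past 2-fold, with a median of -0.03. Sox8 read 5.95 and 6.24 on days 4 and 7 and 6.59 and 6.51 on day 10, a difference of 0.45 (SE 0.176, adjusted p 0.723). Its relative Sox9, the switch of testis development, read 7.84 and 7.33 against 7.30 and 7.10, a difference of -0.38 (SE 0.288, adjusted p 0.958). Tesc, a calcium-binding protein of fetal gonads, was the member past 2-fold, with 7.12 and 6.65 against 7.47 and 8.82. Dmrt1 stayed under the background level on all 4 arrays, between 4.18 and 4.25. The growth factor gene Gdnf overlapped, with 5.48 and 6.38 against 7.22 and 6.27.

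The hedgehog targets of the theca list were higher, and the steroid enzymes Cyp17a1, Cyp11a1 and Hsd3b1 were not. Ptch1, the hedgehog receptor, read 10.27 and 10.77 on days 4 and 7 and 12.14 and 11.93 on day 10, a difference of 1.51 (SE 0.305, adjusted p 0.395). Gli1, the pathway's transcription factor, read 7.22 and 8.24 against 9.04 and 8.73, a difference of 1.15, and the antagonist Hhip differed by 1.23 from values at background. Dhh, the ligand that granulosa cells make, read 7.04 and 7.03 against 8.32 and 7.50, while Ihh overlapped. Cyp17a1, the enzyme of androgen synthesis, was lower, with 7.39 and 6.84 against 6.36 and 5.91, a difference of -0.99 (SE 0.227, adjusted p 0.442). Cyp11a1 and Hsd3b1 overlapped. Over the 11 measured of 16 theca genes, 4 were higher and 2 lower, 3 and 0 of these past 2-fold, with a median of 0.37. Of 10 measured hormone receptor genes of 13, 3 were higher and 2 lower, with a median of 0.17, and of 15 measured cholesterol genes of 18, 6 were higher and 3 lower, with a median of 0.10.

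**Figure D4:**
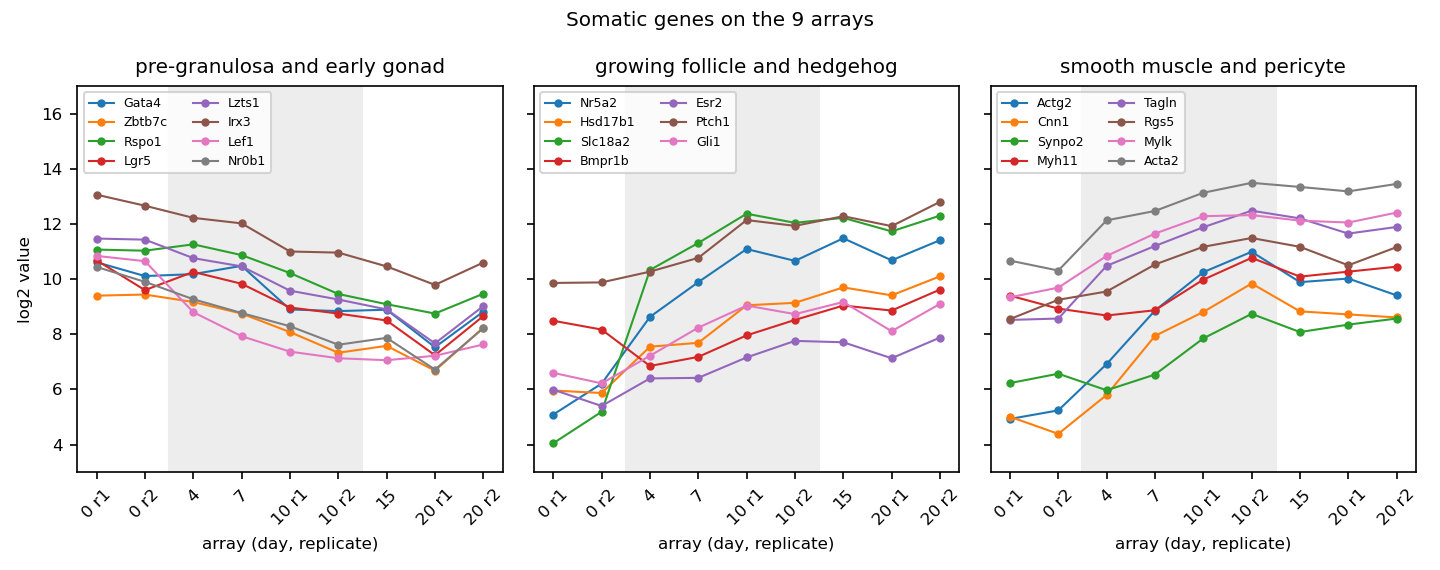
Log2 values on all 9 arrays of pre-granulosa genes, of growing-follicle and hedgehog genes, and of smooth muscle and pericyte genes, with the 4 arrays of the comparison shaded. Lines join the values of a gene and imply no order among replicates. Gata4 stands at 10.48 on day 7 and at 8.90 and 8.84 on day 10, and Actg2 at 6.92 on day 4 and at 10.25 and 10.99 on day 10.

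Smooth muscle and pericyte genes were all higher. Each of the 12 genes lay above both early arrays on both day 10 arrays, 8 of them past 2-fold, with a median of 1.17 (2.26-fold). Actg2, the enteric smooth muscle actin, read 6.92 on day 4 and 8.86 on day 7, and 10.25 and 10.99 on day 10, a difference of 2.73 (SE 0.328, adjusted p 0.261). Cnn1, which encodes calponin, read 5.80 and 7.94 against 8.81 and 9.84, a difference of 2.46 (SE 0.386, adjusted p 0.291). Myh11, the smooth muscle myosin, barely differed between days 4 and 7 with 8.68 and 8.87, and read 9.98 and 10.77 on day 10, a difference of 1.60. Synpo2 differed by 2.04, Tagln by 1.34, the pericyte gene Rgs5 by 1.29 and Acta2 by 1.01. Of 20 endothelial genes, 14 were higher and 0 lower, but Vwf alone was past 2-fold, with 5.51 and 6.47 against 7.36 and 8.27, and the median was 0.48. Kdr and Tie1, receptors of the endothelium, overlapped. The median of 30 measured cell cycle genes of 31 was also 0.48, with 24 higher, 1 lower and 0 past 2-fold. Among them Ube2c read 10.27 and 10.56 against 11.07 and 11.55, Bub1 differed by 0.86 and Mki67 by 0.50.

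Immune genes were mostly lower on day 10. Macrophage genes were measured for 22 of 22 members, of which 0 were higher and 19 lower, 12 of these past 2-fold, with a median of -1.09 (0.470-fold). For the MHC class II genes 8 of 9 were measured, and 0 were higher and 7 lower, 5 past 2-fold, with a median of -1.30. The mast cell genes numbered 9 of 9, with 0 higher and 7 lower, 4 past 2-fold, and a median of -1.10. For the interferon response and MHC class I genes 17 of 19 were measured, with 0 higher and 14 lower, 12 past 2-fold, and a median of -1.44 (0.370-fold). T and NK cell genes (12 of 13) had a median of -0.23 and B and plasma cell genes (8 of 10) one of -0.36, with 1 and 0 genes past 2-fold.

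Over all genes, 6875 of 18194 read higher on day 7 than on day 4, which is the background for such counts here and below. Among the 4 arrays the macrophage genes were mostly lowest on day 10, and 1 of the 22 read higher on day 7 than on day 4. That gene was C1qc, a chain of complement C1q made by macrophages, with 10.13 on day 4, 10.23 on day 7, and 8.43 and 9.08 on day 10, a difference of -1.43 (SE 0.455, adjusted p 0.628). Ccr2, the receptor that brings monocytes into tissue, read 9.36 and 8.98 against 7.78 and 7.79, a difference of -1.39 (SE 0.351, adjusted p 0.491). The lysosomal marker Cd68 read 10.52 and 9.90 against 8.97 and 9.22, and Lyz2, lysozyme, read 14.12 and 13.72 against 12.80 and 13.11. Csf1r, the receptor for macrophage growth factor, differed by -0.56, and Itgam, Arg1 and Cd163 overlapped. Cd74, the invariant chain of MHC class II, read 10.05 and 10.62 against 8.43 and 8.76, a difference of -1.74 (SE 0.586, adjusted p 0.651). H2-Ab1 differed by -1.39. Both read higher on day 7 than on day 4, as did all 8 measured MHC class II genes.

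Mast cell genes differed in time from the macrophage genes, since their step lay between days 4 and 7. Mcpt2, a mast cell protease, read 7.42 on day 4 and 5.23 on day 7, and 4.95 and 4.59 on day 10, a difference of -1.55 (SE 0.191, adjusted p 0.261). Fcer1a, a chain of the IgE receptor, read 6.84 and 4.49 against 4.30 and 4.18. Its values after day 4 were at background, and its difference of -1.43 was -1.01 with low values raised to 4.82. Over the 9 genes the median from day 4 to day 7 was -1.29 and that from day 7 to day 10 was -0.40, so that their difference rests mainly on the single day 4 array.

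Among the 4 arrays the interferon response was highest on day 7. All 17 measured genes read higher on day 7 than on day 4, with a median of 1.57, and the median from day 7 to day 10 was -2.32 but that from day 4 to day 10 only -0.51. Ifit1, an antiviral protein induced by interferon, read 8.66 on day 4, 9.86 on day 7, and 6.69 and 6.99 on day 10, a difference of -2.42 (SE 0.366, adjusted p 0.278). Ifit3 read 8.28 and 10.09 against 7.13 and 7.40, a difference of -1.92 (SE 0.299, adjusted p 0.287). The antiviral genes Mx1 and Oasl2 differed by -1.71 and -1.69, and Irf7, the factor that amplifies the response, read 8.01 and 9.05 against 6.82 and 6.93. Usp18, which turns the response off, read 8.34 and 9.48 against 7.20 and 7.50, a difference of -1.56 (SE 0.172, adjusted p 0.246). These genes lay below day 4 on both day 10 arrays. Cxcl9, a chemokine induced by interferon gamma, read 8.34 and 11.58 against 8.53 and 8.20 and overlapped, as did Gbp2 and Gbp3. For the MHC class I genes H2-K1, H2-D1 and B2m the differences were -1.06, -0.96 and -0.58, with no overlap.

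The promoters of Ifit1 (chr19:34640639-34640888, plus strand) and Ifit3 (chr19:34583279-34583528, plus strand) are shown because interferon acts through a known element whose core was searched as GAAANNGAAA on both strands, a motif chosen after the values were seen. Each of the sequences (RefSeq, GRCm38.p6, 250 bases before the start, 5′ to 3′) holds 2 matches, in capitals, read on the opposite strand.
Ifit1: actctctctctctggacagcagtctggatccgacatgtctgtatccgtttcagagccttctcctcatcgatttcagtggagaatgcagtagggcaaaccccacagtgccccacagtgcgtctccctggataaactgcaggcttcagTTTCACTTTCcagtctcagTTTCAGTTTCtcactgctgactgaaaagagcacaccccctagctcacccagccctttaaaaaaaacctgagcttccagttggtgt
Ifit3: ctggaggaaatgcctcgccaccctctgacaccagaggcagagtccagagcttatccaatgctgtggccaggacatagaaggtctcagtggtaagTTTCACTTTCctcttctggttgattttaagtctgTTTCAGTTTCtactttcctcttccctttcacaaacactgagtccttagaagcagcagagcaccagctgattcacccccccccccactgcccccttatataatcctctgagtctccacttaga
Of the 17 measured interferon and MHC class I genes, 15 matched a RefSeq promoter, and 7 of their 17 windows (41.2%) held the core, against 2.98% of all windows and 0 of the 20 windows of the oocyte genes.

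**Figure D5:**
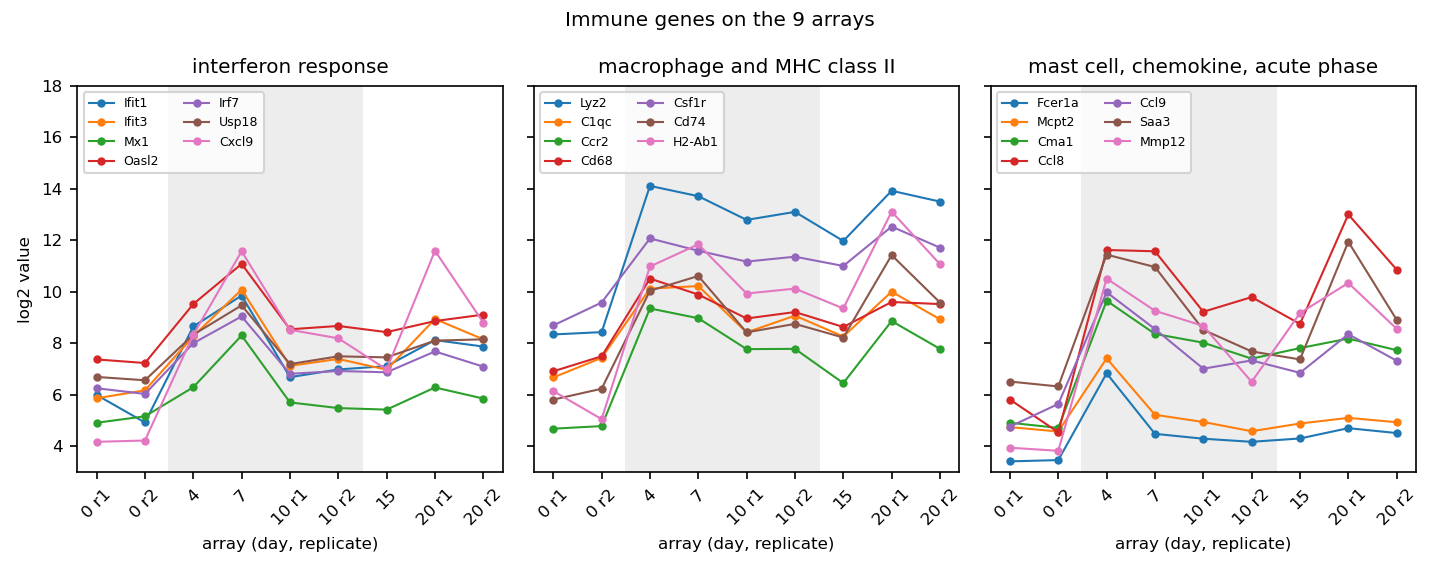
Log2 values on all 9 arrays of interferon response genes, of macrophage and MHC class II genes, and of mast cell, chemokine and acute phase genes, with the 4 arrays of the comparison shaded. Lines join the values of a gene and imply no order among replicates. Among the shaded arrays the interferon genes stand highest on day 7, where Ifit1 reads 9.86, Lyz2 reads 14.12 on day 4 and 12.80 and 13.11 on day 10, and Mcpt2 reads 5.23 on day 7.

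Chemokine and inflammation genes were measured for 22 of 22 members, of which 2 were higher and 13 lower, 2 and 6 past 2-fold, with a median of -0.48. Saa3, an acute phase protein of macrophages and stroma, had the largest negative difference of all genes, with 11.45 and 10.97 against 8.53 and 7.69, a difference of -3.10 (SE 0.943, adjusted p 0.595). On day 20 it read 11.95 on replicate 1 and 8.92 on replicate 2. Ccl8 read 11.63 and 11.58 against 9.23 and 9.80, a difference of -2.09, and Ccl2, the ligand of Ccr2, differed by -1.55. Cxcl12, a chemokine of stromal cells, was higher instead, with 9.48 and 10.38 against 11.66 and 11.32, a difference of 1.55 (SE 0.302, adjusted p 0.370). Il6 stayed under the background level on all 4 arrays. Of 8 measured complement genes of 13, 0 were higher and 7 lower, with C3ar1, the receptor of a complement fragment, at 9.54 and 8.66 against 7.40 and 7.77.

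The 15 genes with the largest negative difference held further immune genes. Vsig4, a complement receptor of resident macrophages, read 7.77 and 7.61 against 5.03 and 5.03, a difference of -2.65 (SE 0.228, adjusted p 0.246). Ms4a4c differed by -2.32, Slfn4 by -2.14, Ccl6 by -2.13, Ccl9 by -2.09 and Calhm6 by -1.99, all genes of myeloid or interferon-treated cells. The day 10 values of Ms4a4c were under the background level, and its difference was -1.86 with low values raised. Cthrc1, a secreted protein of injured vessels and stroma, read 11.71 on day 4 and 10.00 on day 7, and 8.07 and 8.24 on day 10, a difference of -2.70 (SE 0.207) with an adjusted p of 0.237. Trim66, Insyn2b, Ccn3 and Prss22 made up the rest, with differences between -2.26 and -2.07. The probe sets of Ms4a4c, Ccl6 and Ccn3 may read close copies or related transcripts.

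Matrix and protease genes of wound repair leaned lower. Of 21 measured genes of 24, 4 were higher and 12 lower, 1 and 3 past 2-fold, with a median of -0.37. Mmp12, the elastase of macrophages, read 10.52 and 9.27 on days 4 and 7 but 8.68 and 6.51 on the day 10 arrays, so that its difference of -2.30 (SE 0.845, adjusted p 0.699) goes with a wide spread between the duplicates. Timp1, an inhibitor of such proteases, read 11.55 and 10.96 against 9.92 and 9.90, a difference of -1.34 (SE 0.216, adjusted p 0.306), and Lgals3 differed by -1.33. Ccn2, a matrix protein induced by tension and TGF-beta, was higher by 1.08. Of 13 fibrillar collagen genes 2 were higher and 6 lower, 0 and 2 of these past 2-fold, with a median of -0.06. The differences were -0.34 for Col1a1, -1.97 for Col5a3 (SE 0.291, adjusted p 0.277) and 0.81 for Col11a1. The list of 11 proteoglycan genes was split, with 5 higher and 4 lower, 2 and 0 of these past 2-fold, and a median of 0.29. Omd and Ogn were higher by 1.32 and 0.79, and the lowest difference in the list was -0.41.

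Genes of low oxygen and glycolysis were lower with small differences. None of the 20 measured genes of 22 was higher and 13 were lower, 1 of them past 2-fold, with a median of -0.46, and 2 of the 20 read higher on day 7 than on day 4. Hk2, which traps glucose in the cell, read 9.35 on day 4, 8.33 on day 7, and 8.03 and 8.04 on day 10. Pfkl differed by -1.04, Ldha by -0.50 and Vegfa, the vessel growth factor, by -0.52. Adm and Car9, further targets of low oxygen, overlapped.

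Imprinted and fetal growth genes, which are turned down in many organs after birth, had 2 higher and 10 lower members among 19 measured of 21, 3 of the lower past 2-fold, with a median of -0.49. Igf2, the fetal growth factor, read 13.37 on day 4, with a step of -0.37 to day 7, and 11.65 and 11.36 on day 10, a difference of -1.68 (SE 0.176, adjusted p 0.246). Its levels were 11.34 on day 15 and 10.17 and 10.36 on day 20. Igf2bp3, which binds its RNA, differed by -1.20, Zim1 by -1.27 and Cdkn1c, a brake on the cell cycle, by -0.99. Igf2r, Grb10 and Ndn overlapped.

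Immediate early genes had 5 higher and 10 lower members of 22 with a median of -0.08, and Egr1 read 10.88 and 11.08 against 11.24 and 11.18, while Nr4a1 overlapped. Surface epithelium, skeletal muscle, hepatocyte and adipocyte genes had medians between -0.17 and -0.03, although Cdh1 of the epithelium was higher by 1.55 and Pparg, the regulator of fat cells, by 1.48. Erythroid genes (12 of 16) had a median of -0.32, and the embryonic globin Hbb-y read 9.97 and 7.42 on the early arrays but 5.40 and 8.22 on the day 10 arrays. Since the grafts were XX and the hosts XY, transcripts of the Y chromosome in a graft can come from host cells alone. All 3 measured of 4 Y-linked genes were lower on day 10, 2 of them past 2-fold, with Eif2s3y at 7.70 and 6.76 against 6.20 and 6.13 (difference -1.06, SE 0.673, adjusted p 0.924) and Kdm5d at 5.43 and 5.07 against 4.03 and 4.05. Kdm5d was under the background level on day 10, and its difference of -1.21 was -0.43 with low values raised. The part of host cells in the immune and kidney genes was not tested.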

How the data were processed

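Each array was hybridised with labelled RNA from a pool of about 10 grafts, 100 ng of RNA having been amplified with 1 of 2 kits. The kit of each array is unknown here. The values deposited by the authors are log2 intensities for 45101 probe sets from the robust multiarray average (RMA), a method with background correction, quantile normalization between arrays and a summary over the probes of each set. Its software version was not stated. No detection calls were used, and precision is limited by the number of arrays. Quantile normalization gives all arrays nearly the same distribution, so that a shift of most transcripts in 1 direction cannot be seen.

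Samples were grouped by the day in their labels. For each probe set, limma 3.58.1 (lmFit, contrasts.fit, eBayes) in R 4.3.3 estimated 1 mean per day over all 9 arrays, since days 4 and 7 have 1 array each and borrow the spread of days 0, 10 and 20. It had 3 residual degrees of freedom, 2.69 prior degrees of freedom and a prior variance of 0.0423. The contrast was day 10 minus the mean of days 4 and 7, with Benjamini-Hochberg adjustment over all 45101 probe sets, 64 control sets included, and a call needed an adjusted p under 0.05 together with a fold over 2. The p-values and SEs measure the spread between pooled duplicates of days 0, 10 and 20, not that of day 10 alone. The day 20 duplicates differed in kidney proximal tubule genes, with list medians of 12.0 and 6.25. Without the day 20 arrays the prior variance was 0.0239. Simulated data with known changes and the same spread for every probe set were used to check the code of the fit. They do not measure power or false calls in the real arrays, whose spread is unequal. Of the probe sets, 34958 had a single symbol in the platform annotation, 932 had several and 9211 had no entry. In lists a gene is represented by its probe set with the highest mean over the 9 arrays, and other tables were made with Python 3.11.15, pandas 2.3.3 and matplotlib 3.10.9.

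The comparison, the lists and the rule for named genes were chosen with earlier results of these data known. Named genes are the 15 with the largest positive and the 15 with the largest negative difference without overlap and past 2-fold, since none was called, up to 5 members of each list, defining markers, and genes that the paper names. Genes outside it are named to show where a list did not move together, and were chosen after their values were seen. The alternatives were other sets of arrays in the fit, an intensity trend, other normalizations and filters, a fold of 1.5, genes for probe sets, other probe sets of a gene, and each array left out in turn.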

Additional observations from a re-analysis of the deposited data

How the results depend on the processing

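The count of 0 probe sets called on day 10 against the early grafts held in every alternative but 1. With values raised to the 25th percentile (4.82), 1 probe set was called higher and 13 lower, 10 of these 14 with an array at the floor, where the raised values have no spread. The probe set called higher was that of Tmem204, a membrane protein of vessels, with a difference of 1.97 and an adjusted p of 0.0425. Under the same setting 8 probe sets were lower on day 10 than on day 7, 1 was higher and 19 were lower than on day 4, and 3 were higher and 6 lower on day 7 than on day 4. The lowest adjusted p was 0.237 with the 4 arrays alone as 2 groups, 0.603 with the graft arrays, 0.154 without day 20, 0.134 with an intensity trend, 0.0687 for probe sets above the median, 0.135 with genes in place of probe sets, 0.0519 without day 10 replicate 1, and 0.0946 with day as a number, an alternative chosen after seeing the data. Without overlap and past 1.5-fold, 1842 probe sets were higher and 1585 lower, and with genes in place of probe sets 388 and 297 were so past 2-fold. Leaving out an array gave between 488 and 1357 higher and between 454 and 668 lower probe sets. Leaving out the day 7 array turned the sign of 5 genes that read higher on that array than on the other 3 of the comparison, and over the omissions the difference ran from -3.42 to 0.98 for Cxcl10, from -4.27 to 0.03 for Cxcl11, from -3.21 to 0.03 for Cxcl9, from -3.81 to 0.15 for Gbp8 and from -3.32 to 0.06 for Ubd. For Foxl2 it ran from -0.21 to 0.03, and other probe sets gave 0.08 for Foxl2 and 0.07 for Nr5a1. Over all 160 genes followed under the 18 alternatives, 2734 of 2743 differences kept their sign and stayed uncalled, 8 changed sign as given above, and 1, that of Fcer1a at -1.01 with raised values, was called. Genes described as overlapping carry no direction and, apart from those named above, were not followed.

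No paired analysis was possible because the day 4 and day 7 arrays carry no replicate number. Dim genes are limited by the background, since a difference from or to a value under 4.82 is uncertain in size, and the lone arrays of days 4 and 7 are assumed to vary like the days with duplicates.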

Other observations

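A group of genes induced by interferon gamma, chosen after their values were seen, was high on the day 7 array and lower on both day 10 arrays. Cxcl11, a chemokine for activated T cells, read 6.62 on day 4, 10.92 on day 7, and 6.61 and 6.68 on day 10. Cxcl10, of the same family, read 6.78 and 11.17 against 7.43 and 8.08. Gbp8, a guanylate-binding protein, read 7.11 and 11.08 against 7.18 and 7.35, and Ubd, a ubiquitin-like protein, read 4.21 and 7.59 against 4.32 and 4.22. Gzmb, the granzyme of NK and cytotoxic T cells, belongs to the T and NK cell list and not to this group. It read 6.23 and 8.41 against 5.89 and 5.73. With 1 array on day 7, the high level has no replicate check. On day 20, Ubd read 10.72 on replicate 1 and 4.65 on replicate 2, and Cxcl11 read 10.46 and 7.40.

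Several genes known from secretory and covering epithelia, though not from these alone, were higher on both day 10 arrays. They were also chosen after their values were seen, and the cells that express them in the grafts were not tested. Ltf, the secreted iron-binding protein lactoferrin, read 5.68 and 5.74 on days 4 and 7 and 7.88 and 8.76 on day 10, a difference of 2.61 (SE 1.336, adjusted p 0.846). Sprr2f, a protein of cornified and uterine epithelium, read 5.53 and 6.40 against 8.45 and 9.09. Plet1, an epithelial progenitor antigen, read 4.98 on day 4, 9.11 on day 7, and 10.38 and 9.68 on day 10 in the brightest of its 3 probe sets, while 1 of them stayed between 5.61 and 6.17. Adamdec1, a protease of tissue macrophages and stroma, went against the other macrophage genes, with 4.52 and 6.12 against 8.49 and 8.53, a difference of 3.19 (SE 0.807, adjusted p 0.491). Tnnt2, the cardiac troponin T, read 4.89 and 6.34 against 7.72 and 8.87 in 1 probe set and stayed between 4.40 and 4.54 in another.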
